A study of Mus musculus with 2 samples.

Results

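The genes described are 10 cytokine receptor subunits, chosen by name: the common gamma chain *Il2rg* and the chains that pair with it (*Il2ra*, *Il2rb*, *Il7r*, *Il4ra* and *Il21r*), and the receptors for IL-6 (*Il6ra*), IL-18 (*Il18r1* and *Il18rap*) and IL-12 (*Il12rb2*). All 10 were found by symbol among the 27998 genes of the count tables, and each had at least 1 UMI (unique molecular identifier, a count of captured RNA molecules) in both libraries. The study profiled CD45+ cells sorted from brain by droplet single-cell 3′ RNA sequencing. The WT library came from pooled wt littermates (galc+/+) and the twi library from pooled twitcher mice (galc-/-), which lack the lysosomal enzyme galactosylceramidase and model Krabbe disease. All mice were C57Bl/6, untreated, and taken at postnatal day 21. There was 1 pooled library per genotype, so no difference between genotypes could be tested, and every interval below is a 95% interval that covers counting error only.

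Common gamma chain receptors pass signals from IL-2, IL-4, IL-7, IL-15 and IL-21 through the Janus kinases JAK1 and JAK3 to STAT transcription factors. The IL-7 receptor keeps resting T cells alive and drives the growth of B cell precursors, and T cells usually lose it when they become effectors, while the IL-2 and IL-15 receptor beta chain rises in effector T cells and is abundant in NK cells. IL-18 acts through a separate pathway that uses MyD88, and together with IL-12 it prompts NK and T cells to make interferon gamma.

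The members lie on 7 chromosomes of the mouse genome, given here by GENCODE coordinates on GRCm38, the assembly also called mm10 that the submitters' processing notes name. *Il18r1* (chr1:40465552-40500854) and *Il18rap* (chr1:40515362-40551705) lie side by side on the plus strand, with 14507 bases and no other coding gene between them. *Il4ra* (chr7:125552120-125579474) and *Il21r* (chr7:125603429-125633570) are likewise neighbours on the plus strand, 23954 bases apart. *Il7r* (chr15:9505788-9530176, minus strand) and *Il2rb* (chr15:78479256-78495271, minus strand) share a chromosome but not a neighbourhood. *Il2ra* is at chr2:11642807-11693193 on the plus strand, *Il6ra* at chr3:89864059-89913196 on the minus strand and *Il12rb2* at chr6:67291318-67376188 on the minus strand. *Il2rg* (chrX:101264378-101268255, minus strand) is X-linked. In GENCODE the models *Gm37881* and *Gm20489* overlap *Il2ra* and *Il2rg* on the same strand, so reads could be split between them.

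The 250 bases upstream of the RefSeq transcription start (GRCm38.p6, on the strand of the gene) are shown for the receptors that were lower together in twi cells: *Il7r* and *Il6ra* in effector-like CD8 T cells, and *Il18r1* and *Il18rap* in NK cells. RefSeq windows were at hand for 9 of the 10 members, all but *Il2rb*. These letter patterns were searched on both strands: the STAT-type site TTCNNNGAA, the interferon-type core GAAANNGAA, the T-box core TCACAC, the Runx core TGTGGT and the E-box CAGGTG. Matches are in capitals.
Il7r, chr15:9529877-9530126, minus strand: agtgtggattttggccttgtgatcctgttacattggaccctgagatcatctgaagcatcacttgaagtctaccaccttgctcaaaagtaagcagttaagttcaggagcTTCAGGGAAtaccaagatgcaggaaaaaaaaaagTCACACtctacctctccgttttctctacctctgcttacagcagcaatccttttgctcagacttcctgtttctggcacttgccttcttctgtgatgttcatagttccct
Il6ra, chr3:89913197-89913446, minus strand: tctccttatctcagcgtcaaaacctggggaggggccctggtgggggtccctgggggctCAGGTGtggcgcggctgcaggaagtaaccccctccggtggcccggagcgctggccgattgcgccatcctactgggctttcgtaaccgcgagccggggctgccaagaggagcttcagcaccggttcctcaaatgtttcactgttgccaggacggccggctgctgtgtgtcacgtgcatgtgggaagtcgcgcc
Il18r1, chr1:40465302-40465551, plus strand: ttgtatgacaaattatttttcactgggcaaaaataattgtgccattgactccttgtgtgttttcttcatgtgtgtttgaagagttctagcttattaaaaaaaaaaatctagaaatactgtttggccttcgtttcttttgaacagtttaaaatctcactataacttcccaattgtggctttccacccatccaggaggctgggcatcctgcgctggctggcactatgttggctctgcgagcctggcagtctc
Il18rap, chr1:40515112-40515361, plus strand: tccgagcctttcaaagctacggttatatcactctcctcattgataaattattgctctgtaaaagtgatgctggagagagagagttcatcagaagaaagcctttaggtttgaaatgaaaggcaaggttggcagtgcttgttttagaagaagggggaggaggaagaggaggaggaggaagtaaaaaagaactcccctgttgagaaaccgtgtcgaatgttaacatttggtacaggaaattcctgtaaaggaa
The *Il7r* window held a TTCNNNGAA match that began 142 bases before the start and a TCACAC match that began 108 bases before it. The *Il6ra* window held 1 CAGGTG match, and neither of the windows shown for the IL-18 receptor pair held any of them. RefSeq gives *Il18r1* other starts as well, and the window of the one 454 bases downstream held 2 TTCNNNGAA matches and 1 CAGGTG match. Among all 32851 RefSeq windows of this length, 7.02% held TTCNNNGAA, 7.13% GAAANNGAA, 12.3% TCACAC, 14% TGTGGT and 17.2% CAGGTG, so single matches of this kind are frequent. The RefSeq start used for *Il7r* lies 300 bases inside the GENCODE gene, and GENCODE places a non-coding exon of another *Il7r* transcript over part of that window.

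The WT library held 1278 barcodes and 3749714 UMIs (median 2216 per barcode), and the twi library 1220 barcodes and 4807539 UMIs (median 3149.5). No barcode occurred in both. Barcodes with over 15% mitochondrial UMIs were removed, 7 from WT and 13 from twi. The libraries differed in the sex of their animals: 548 of 1207 twi cells (45.4%) and none of 1271 WT cells held *Xist* without a Y-linked transcript, and 487 WT cells (38.3%) and 207 twi cells (17.2%) held a Y-linked transcript without *Xist*. Values are therefore repeated below in the latter, called Y-positive cells, for part of the results. *Galc* was counted at 4 UMIs in WT and 8 in twi. Because the twitcher allele is a point mutation, a count of 3′ ends does not check the genotype.

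Cells were assigned to classes by marker UMIs that include no member. Among CD8 T cells, naive-like cells (more UMIs of naive genes, *Ccr7*, *Lef1* and *Igfbp4* among them) numbered 52 in WT and 53 in twi, and effector-like cells (more UMIs of *Ccl5*, *Nkg7*, *Gzmb*, *Gzmk* and *Cxcr6*) numbered 46 in WT and 362 in twi. The other classes, WT first, were CD4 T cells (45 and 68), other T cells (130 and 272), NK cells (77 and 76), B cells (558 and 167), mononuclear phagocytes, that is monocytes, macrophages and microglia (50 and 60), and neutrophils (222 and 62). *Trdc*, the marker planned for γδ T cells, was not in the gene list used here, so that class is empty. T cells without *Cd4* or *Cd8* UMIs were split by NK receptor genes and by the effector and naive sums. Markers kept out of the gates mostly matched the names. *Lck*, a T cell kinase, was detected in 87.0% of WT and 90.6% of twi effector-like CD8 cells, and *Gzma* in 96.1% of WT and 73.7% of twi NK cells. *Lck* was found in 3.76% of WT and 7.19% of twi B cells but in 80.5% and 80.3% of NK cells. It thus does not tell T cells from NK cells. The effector-like class was not alike in the libraries: *Tcf7*, a factor of naive and memory T cells, was detected in 73.9% of its WT cells and 37.6% of its twi cells, and *Cxcr6*, a gate gene, in 26.1% and 76.8%. The gate sums of the naive and effector genes differed by at most 2 UMIs in 36 of 109 WT and 38 of 427 twi CD8 cells, so some cells lay close to the line between the classes.

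Among the 8 classes plotted, most receptors were read mainly in a few. *Il2rb* and *Il18rap* were highest in NK cells. *Il7r* was highest in naive-like CD8 and CD4 T cells, with other T cells and effector-like CD8 T cells (348 CPM) close to CD4 in WT. *Il6ra* was highest in CD4 T cells, naive-like CD8 T cells and mononuclear phagocytes. *Il18r1* was highest in NK cells in WT, while in twi NK cells and other T cells (120 CPM, 99.2 to 144) had intervals that overlapped. The other T cells are a mixture, and the levels of its parts can lie well above or below its own. *Il2rg* was spread over all lymphocytes and was nearly lacking in neutrophils. Levels below are CPM, the UMIs of a gene in a class scaled by all UMIs of that class, and are compared between classes and libraries, not between genes, because 3′ tags are captured at different rates.

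**Figure D1:**
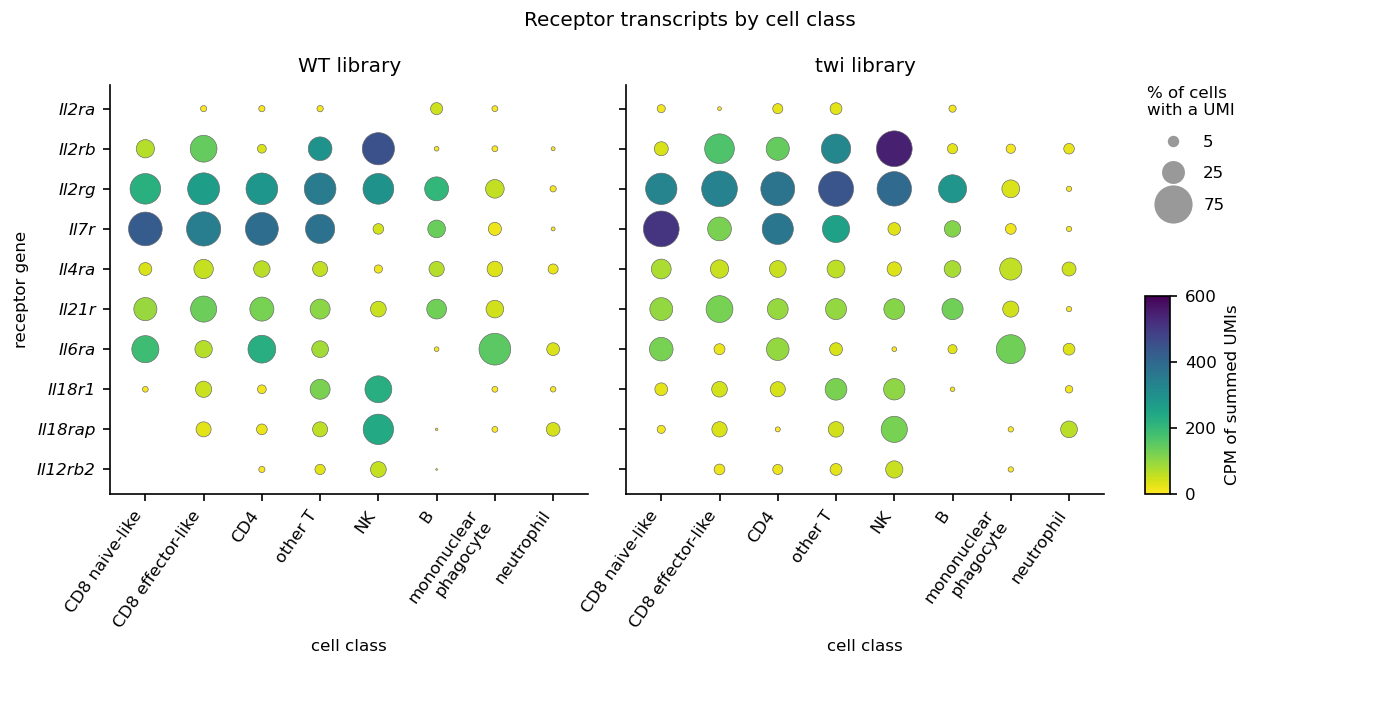
Each dot is a receptor gene (rows) in a cell class (columns), for the WT library on the left and the twi library on the right, with the area giving the percentage of cells with a UMI and the colour the CPM of summed UMIs. *Il2rb* was darkest in NK cells at 452 CPM in WT and 547 CPM in twi, and *Il7r* in naive-like CD8 T cells at 428 and 508 CPM.

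*Il2rg* encodes the common gamma chain, which every receptor of the family needs. In WT it stood at 219 CPM in naive-like CD8, 268 CPM in effector-like CD8, 286 CPM in CD4, 295 CPM in NK and 205 CPM in B cells. In twi the same classes stood at 329, 334, 372, 395 and 287 CPM. All 5 lymphocyte classes were thus higher in twi, by ratios of 1.25 to 1.498, and none passed 2-fold. The interval of the ratio lay above 1 in all CD8 T cells together (1.34, 1.10 to 1.65) and in B cells (1.40, 1.12 to 1.74), and reached below 1 in effector-like CD8 (0.954 to 1.65), naive-like CD8 (0.994 to 2.28), CD4 (0.891 to 1.93) and NK cells (0.977 to 1.85). In Y-positive cells, the CD8 ratio was 1.77 (1.28 to 2.49; 56 twi and 51 WT cells) while the B cell ratio was 1.07 (0.658 to 1.67; 36 twi and 207 WT cells). The CD8 ratio was thus as large within Y-positive cells, and the B cell difference was not detectable there at this depth. In twi effector-like CD8 cells *Il2rg* stood at 432 CPM in those without a naive-gate UMI and 272 CPM in those with one, a ratio of 1.59 (1.35 to 1.87). In B cells the difference between libraries lay in cells high in MHC class II transcripts (299 CPM in WT, 473 CPM in twi), where the ratio was 1.58 (1.20 to 2.07), against 0.819 (0.522 to 1.24) in the low cells. *Il2rg* was at 5 UMIs in 222 WT neutrophils and 1 UMI in 62 twi neutrophils.

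*Il7r*, the alpha chain of the IL-7 receptor, was the member that differed most clearly between twi and WT CD8 T cells. Effector-like cells held 348 CPM (275 to 435; 78 UMIs) in WT and 121 CPM (106 to 138; 217 UMIs) in twi, a ratio of 0.348 (0.267 to 0.457). At least 1 *Il7r* UMI was found in 31 of 46 WT cells and 118 of 362 twi cells, at median depths of 4349 and 4279.5 UMIs. Neutrophils, which lack the receptor, gave 2 of 222 and 1 of 62 cells at medians of 2352.5 and 2167 UMIs. After every cell was thinned to 1000 UMIs, the shares were 30.4% in WT and 10.9% in twi.

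The naive-like CD8 cells did not share this pattern. Their *Il7r* stood at 428 CPM (338 to 534) in WT and 508 CPM (413 to 619) in twi, a ratio of 1.19 (0.874 to 1.62). Within the twi library, effector-like cells were thus at 0.238 (0.187 to 0.306) of the naive-like level, and within WT at 0.815 (0.587 to 1.13). The same contrast in Y-positive cells gave 0.221 in twi and 0.526 in WT. With *Ccl5* and *Nkg7* out of the gate it gave 0.271 in twi and 0.222 in WT, where few WT effector-like cells were left. The contrast between the libraries thus depended on the gate.

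The *Il7r* ratio varied with how the effector-like class was drawn, and the part of the makeup of that class was not tested. WT effector-like cells more often kept naive transcripts: *Ccr7* was detected in 50% of them against 16.0% in twi, and *Dapl1*, a marker outside the gate, in 34.8% against 8.01%. Among effector-like cells without any naive-gate UMI, *Il7r* was at 313 CPM in WT (16 UMIs, 12 cells) and 56.3 CPM in twi (39 UMIs, 169 cells), a ratio of 0.180 (0.0984 to 0.345). These WT cells were shallower, at a median of 2074.5 UMIs against 3635 in twi. *Tcf7* was still detected in 58.3% of them against 24.3% in twi, so the split did not make the libraries alike. Among those with a naive-gate UMI it was at 359 CPM in WT and 162 CPM in twi, a ratio of 0.452 (0.336 to 0.613). When the class was drawn from *Gzmb*, *Gzmk* and *Cxcr6* alone, WT kept 7 cells and the ratio was 0.956 (0.363 to 3.57), so at this depth no difference could be seen between the most strictly defined effector cells. T cells without *Cd4* or *Cd8* UMIs that passed the effector gate stood at 188 CPM in WT (30 cells) and 189 CPM in twi (101 cells), a ratio of 1.005 (0.545 to 1.998). In Y-positive cells the effector-like CD8 ratio was 0.380 (0.205 to 0.680).

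**Figure D2:**
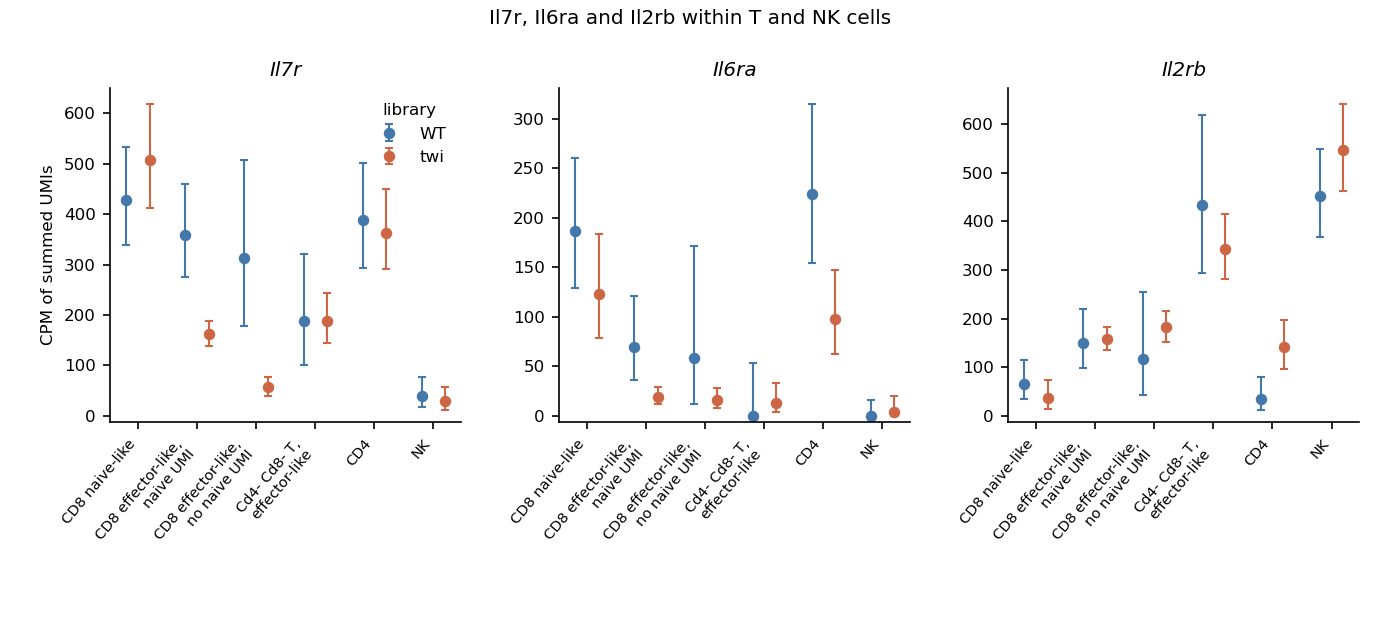
Points are CPM of summed UMIs and bars the 95% Poisson interval for *Il7r*, *Il6ra* and *Il2rb* in the WT (blue) and twi (orange) library, by T and NK cell class. *Il7r* of the twi effector-like CD8 cells without naive UMIs (56.3 CPM) lay below their WT counterpart (313 CPM), while the naive-like, CD4 and *Cd4*- *Cd8*- effector-like pairs overlapped. That WT counterpart was 12 cells at a median of 2074.5 UMIs, against 3635 in twi.

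Within the 362 twi effector-like CD8 cells, *Il7r* varied with other states of the cell. Cells with at most 0.1% of their UMIs in interferon-stimulated genes held 153 CPM and those above held 75.4 CPM, a ratio of 0.494 (0.357 to 0.674). This line is not a natural boundary, since 107 of the 362 cells lay close to it. Dividing cells, with at least 2 UMIs of *Mki67* and other mitotic genes, held 35.1 CPM against 141.5 CPM in the rest, a ratio of 0.248 (0.126 to 0.442). Leaving out the dividing cells gave a twi over WT ratio of 0.347, and leaving out the cells high in interferon-stimulated genes gave 0.437 (0.329 to 0.586).

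In CD4 T cells and NK cells the intervals of *Il7r* overlapped between the libraries. CD4 T cells held 388 CPM in WT and 363 CPM in twi, and NK cells 40.2 and 29.0 CPM. The other T cells were lower in twi, at 374 CPM (312 to 445) in WT and 258 CPM (227 to 292) in twi, a ratio of 0.690 (0.555 to 0.86). Those in the naive gate stood at 567 CPM in WT (45 cells) and 512 CPM in twi (34 cells), a ratio of 0.903 with an interval that crossed 1, as did that of the effector gate given above (30 WT and 101 twi cells).

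*Il6ra*, which binds IL-6 and signals through the shared subunit gp130, was also lower in twi CD8 T cells. Effector-like cells held 67.0 CPM (37.5 to 110.5; 15 UMIs in 8 of 46 cells) in WT and 17.9 CPM (12.2 to 25.2; 32 UMIs in 25 of 362 cells) in twi, a ratio of 0.267 (0.140 to 0.530). Of the 15 WT UMIs, 8 came from 2 of 4 dividing cells. Without dividing cells the levels were 41.4 CPM in WT (7 UMIs) and 19.3 CPM in twi (28 UMIs), and the ratio of 0.467 had an interval that crossed 1 (0.199 to 1.27). At 1000 UMIs per cell the shares were 8.70% in WT and 1.40% in twi, against 0.587% and 1.82% in B cells, which should hold little of it. B cells were not an even floor, at 6.49 CPM in WT (8 UMIs) and 25.9 CPM in twi (11 UMIs). NK cells gave 0% in both libraries at 1000 UMIs. The twi effector-like share thus lay below the twi B cell share and above that of NK cells. Whether it exceeds background is not read. Naive-like CD8 cells held 186 CPM in WT and 123 CPM in twi (ratio 0.661, 0.375 to 1.15), and CD4 cells 224.5 and 98.3 CPM (0.438, 0.246 to 0.769). In Y-positive CD4 cells the ratio was 0.530, short of 2-fold. NK cells had 0 UMIs in WT, which allows up to 3.90% of the 77 cells to hold a UMI, and 1 UMI in twi. Such limits concern cells with a captured UMI, not cells that express the gene. Effector-like cells were below naive-like cells in both libraries, at 0.359 (0.182 to 0.678) in WT and 0.145 (0.0828 to 0.257) in twi. Over all CD8 T cells the twi over WT ratio was 0.252 (0.170 to 0.376), and in the Y-positive ones 0.5125 (0.243 to 1.03), which is no longer past 2-fold. Naive-like cells, which held more *Il6ra*, were 52 of 109 WT and 53 of 427 twi CD8 cells. The part of this cell mix in the ratio over all CD8 T cells was not tested.

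Mononuclear phagocytes were the other home of *Il6ra*, at 151.5 CPM in WT and 130.5 CPM in twi (29 of 50 and 29 of 60 cells). Among those with *C1q* UMIs, which also held the microglial gene *P2ry12* in 94.4% of WT and 68.8% of twi cells, it stood at 327 CPM in WT (15 UMIs, 18 cells) and 131 CPM in twi (12 UMIs, 16 cells). The ratio was 0.399 (0.171 to 0.913). A UMI was found in 10 of the 18 WT and 7 of the 16 twi cells. Per cell the counts were close, at 0.833 UMIs in WT and 0.75 in twi. The twi cells were deeper, at a median of 3252.5 UMIs against 2482.5 in WT, and the part of depth in the ratio was not tested. The phagocytes without *C1q* held 122 and 130.5 CPM.

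*Il2rb*, the beta chain shared by the IL-2 and IL-15 receptors, was higher in effector-like than in naive-like CD8 T cells, by a ratio that depended on gate and depth. It changed little with genotype within effector-like cells. Naive-like cells held 65.8 CPM in WT and 35.9 CPM in twi, and effector-like cells 143 and 167 CPM. The effector-like over naive-like ratio was 2.17 (1.09 to 4.63) in WT and 4.65 (2.23 to 11.65) in twi, with 7 UMIs in the twi naive-like cells. Across alternative settings the twi ratio ranged from 1.55, with *Ccl5* and *Nkg7* out of the gate, to 8.14, at 1000 UMIs per cell. The WT ratio ranged from 1.13, at 1000 UMIs per cell, to 4.12, with T cells without *Cd4* and *Cd8* UMIs added. Between genotypes the effector-like ratio was 1.17 (0.810 to 1.74). CD4 T cells differed more: 5 UMIs in 2 of 45 WT cells (34.0 CPM) against 33 UMIs in 21 of 68 twi cells (141 CPM), a ratio of 4.15 (1.61 to 13.6). In Y-positive CD4 cells the interval crossed 1 (2.47, 0.675 to 9.88; 13 twi and 30 WT cells). In B cells, which should lack the chain, 7 of 558 WT and 10 of 167 twi cells had a UMI at medians of 2001 and 2210 UMIs. This floor was 5.68 CPM in WT (7 UMIs) and 23.5 CPM in twi (10 UMIs), a ratio of 4.14 (1.42 to 12.8). The CD4 ratio was thus about that of the floor.

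NK cells and T cells with NK receptors were high in *Il2rb* in both libraries. NK cells held 452 CPM (368 to 549) in WT and 547 CPM (463 to 642) in twi, a ratio of 1.21 (0.936 to 1.575), and the T cells with NK receptors 605 CPM (466 to 773) and 538 CPM (458 to 628). These 4 intervals overlap, so no order among them is read. The high level was not particular to them. T cells without *Cd4* or *Cd8* UMIs in the effector gate held 434 CPM (293 to 620) in WT, which overlapped both. In twi they held 343 CPM (281 to 414), below both.

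*Il2ra*, the alpha chain that completes the high-affinity IL-2 receptor, was nearly undetected in CD8 T cells: 1 UMI in 109 WT cells and 5 UMIs in 427 twi cells. NK cells had none, 0 of 77 in WT and 0 of 76 in twi, which allows shares of cells with a UMI of up to 3.90% and 3.95%. Regulatory T cells, its usual carriers, could not be judged, as 4 WT and 3 twi CD4 cells held a *Foxp3* UMI and these gave 0 and 1 *Il2ra* UMIs. T cells without *Cd4* or *Cd8* UMIs in the effector gate held 13 *Il2ra* UMIs in 11 of 101 twi cells and 0 UMIs in 30 WT cells, a count that is compatible with a UMI in up to 10% of them.

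*Il21r* varied little between the CD8, CD4 and B classes, each taken as a whole. *Il21r*, the IL-21 receptor alpha chain, stood between 93.2 and 134 CPM in the WT CD8, CD4 and B classes and between 94.1 and 129 CPM in the same twi classes, and no twi over WT ratio among these 4 classes was outside 0.768 to 1.05. NK cells were the exception, with 11 UMIs (49.2 CPM) in WT and 30 UMIs (109 CPM) in twi, a ratio of 2.21 (1.08 to 4.89). In Y-positive NK cells it was 1.45 (0.311 to 7.29). Phagocytes with *C1q* also held more *Il21r* than those without, on few UMIs. The WT levels were 196 CPM (9 UMIs) against 18.0 CPM (5 UMIs), a ratio of 10.9 (3.28 to 41.4). The twi levels were 141.5 CPM (13 UMIs) against 11.2 CPM (3 UMIs), a ratio of 12.7 (3.48 to 69.2). Neither comparison reached the minimum of UMIs set for calling a gene.

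*Il4ra*, the alpha chain for IL-4 and IL-13, was at 53.6 CPM in WT and 50.8 CPM in twi effector-like CD8 cells. Naive-like CD8 cells held 6 UMIs (32.9 CPM) in WT and 15 UMIs (77.0 CPM) in twi, and the ratio of 2.34 had an interval that crossed 1 (0.858 to 7.36). In Y-positive naive-like CD8 cells the ratio was 1.13. B cells held 66.5 and 77.6 CPM. NK cells were lower, at 13.4 CPM in WT (2.77 to 39.2; 3 UMIs), below the B cell interval (52.9 to 82.6), and at 32.6 CPM in twi (14.9 to 61.9; 9 UMIs), where the intervals overlapped. The twi over WT ratios of phagocytes, 1.89 (0.850 to 4.49), and neutrophils, 2.31 (0.873 to 5.85), had intervals that crossed 1 as well.

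*Il18r1*, which binds IL-18, and *Il18rap*, the accessory chain it needs to signal, were both lower in twi NK cells, the first past 2-fold and the second just short of it. *Il18r1* stood at 224 CPM (166 to 295; 50 UMIs in 32 of 77 cells) in WT and 101.5 CPM (67.4 to 147; 28 UMIs in 20 of 76 cells) in twi, a ratio of 0.454 (0.275 to 0.735). *Il18rap* stood at 237 CPM (177.5 to 310; 53 UMIs in 41 cells) in WT and 123 CPM (85.3 to 172; 34 UMIs in 30 cells) in twi, a ratio of 0.520 (0.328 to 0.815). B cells had 0 and 2 *Il18r1* UMIs in WT and twi, and 2 and 0 *Il18rap* UMIs. At 1000 UMIs per cell the *Il18r1* shares of NK cells were 17.1% in WT and 12% in twi, and the *Il18rap* shares 19.7% and 10.7%.

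The difference of the pair was of the same size in NK cells without a *Cd3* UMI, with ratios of 0.433 (0.2497 to 0.733) for *Il18r1* and 0.522 (0.317 to 0.850) for *Il18rap* over 67 WT and 63 twi cells. In Y-positive NK cells the ratios were 0.426 (0.151 to 1.06) and 0.386 (0.1595 to 0.845), over 32 WT and 22 twi cells. *Gzma*, the NK marker named above, was itself found in fewer twi NK cells, and its part in the result was not tested. The lower *Il18rap* was not particular to NK cells. In T cells with NK receptors the twi over WT ratios were 0.474 (0.183 to 1.275) for *Il18rap* and 0.686 (0.347 to 1.42) for *Il18r1*. In T cells without *Cd4* or *Cd8* UMIs in the effector gate they were 0.354 (0.151 to 0.874) and 0.745 (0.372 to 1.62).

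Effector-like CD8 cells carried less of the IL-18 receptor than NK cells and their ratios had intervals that crossed 1. *Il18r1* was at 49.1 CPM in WT and 41.9 CPM in twi (ratio 0.852, 0.450 to 1.78), and *Il18rap* at 26.8 and 33.0 CPM (1.23, 0.532 to 3.48). Naive-like cells held 1 WT and 5 twi *Il18r1* UMIs, and 0 WT and 2 twi *Il18rap* UMIs. Neutrophils held *Il18rap* in 24 of 222 WT and 10 of 62 twi cells (39.6 and 61.2 CPM, ratio 1.54, 0.709 to 3.17) and *Il18r1* in 4 and 2 cells.

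*Il12rb2*, the signalling chain of the IL-12 receptor, was sparse, with 26 UMIs in WT and 72 in twi over all cells. NK cells held 53.7 CPM (12 UMIs) in WT and 50.7 CPM (14 UMIs) in twi, a ratio of 0.946 (0.406 to 2.24). CD8 T cells had 0 UMIs in 109 WT cells and 28 UMIs in 24 of 427 twi cells, all of them effector-like. Set against 3 UMIs, the most that a count of 0 allows, twi was at least 2.03-fold higher over all CD8 cells and at least 1.17-fold higher among effector-like cells, where up to 6.52% of the 46 WT cells could hold a UMI. These values leave out the counting error of the twi UMIs. With it, the lower limits of the exact interval were 1.545 and 0.888, so no difference among effector-like cells is read. Naive-like CD8 cells had none in either library.

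**Figure D3:**
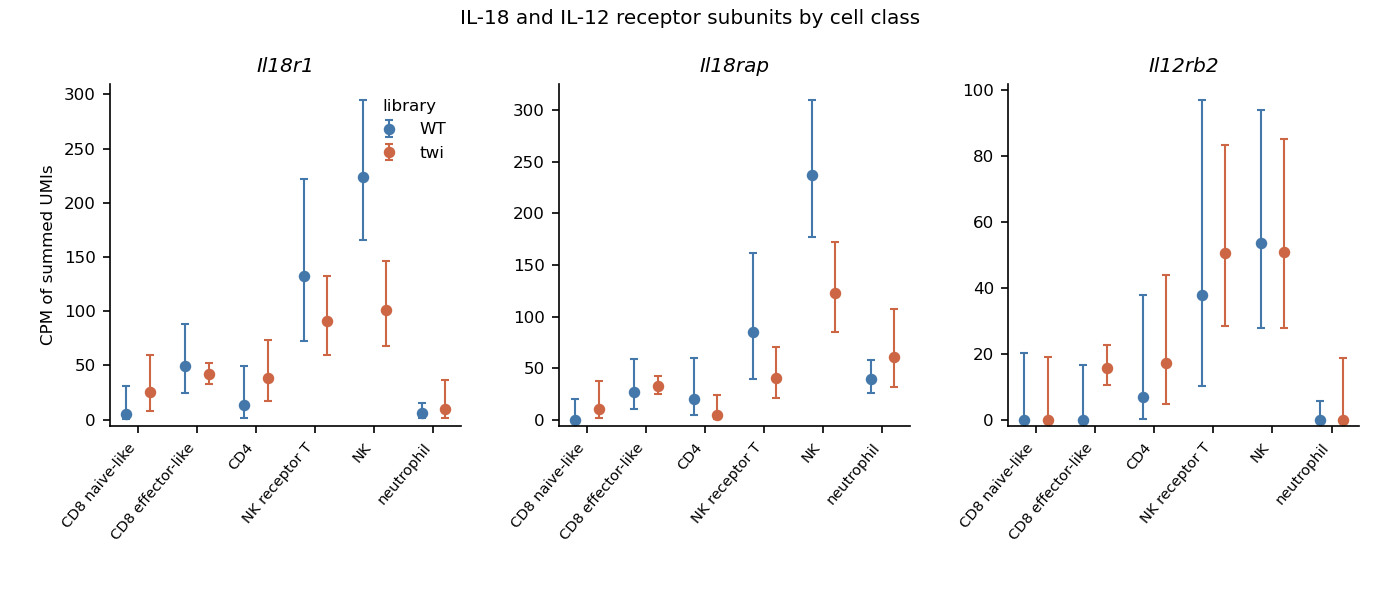
Points are CPM of summed UMIs and bars the 95% Poisson interval for *Il18r1*, *Il18rap* and *Il12rb2* by cell class in the WT (blue) and twi (orange) library. In NK cells *Il18r1* stood at 224 CPM in WT and 101.5 CPM in twi and *Il18rap* at 237 and 123 CPM, while *Il12rb2* was level at 53.7 and 50.7 CPM.

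B cells carried *Il7r* and *Il2ra*, both known from B cell precursors, mainly in cells low in MHC class II transcripts. In WT, *Il7r* was at 136 CPM (168 UMIs in 101 of 558 cells) and *Il2ra* at 46.2 CPM (57 UMIs in 47 cells), and in twi at 110.5 CPM (47 UMIs in 26 of 167 cells) and 11.8 CPM (5 UMIs in 5 cells). The *Il7r* ratio was 0.811 (0.574 to 1.13) and the *Il2ra* ratio 0.254 (0.0795 to 0.629). Both were read in 13 WT cells and 1 twi cell, where the product of their separate shares gives 8.51 and 0.778. A further split was by at least 2 UMIs of the precursor genes *Vpreb1*, *Igll1*, *Rag1* and *Dntt*. In WT, *Il7r* stood at 193 CPM (129 to 277) in the 43 cells with these and 128.5 CPM (108 to 152) in the other B cells, while *Il2ra* stood at 13.3 CPM (2 UMIs) and 50.8 CPM (55 UMIs). The *Il7r* intervals overlapped and *Il2ra* rested on 2 UMIs in the precursor cells, so no parting of the receptors is read.

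The split by MHC class II transcripts, which rise as B cells mature, sorted the receptors. In MHC II low cells *Il7r* was at 192 CPM in WT and 199 CPM in twi, against 39.8 and 10.1 CPM in MHC II high cells. *Il2ra* was at 67.9 CPM in WT and 17.7 CPM in twi in the low cells, against 8.85 and 5.03 CPM in the high cells, and its ratio within the low cells was 0.260 (0.0684 to 0.707). *Il2rg* ran the other way, at 151 and 124 CPM in the low and 299 and 473 CPM in the high cells. *Ms4a1*, the mature antigen CD20, was found in 13.9% of WT and 15.4% of twi B cells with an *Il7r* UMI, against 79.0% and 81.0% of those with neither receptor, and in 29.8% of WT B cells with an *Il2ra* UMI. The proliferation gene *Mki67* was found in 21.8% and 23.1% of the *Il7r* cells against 0.946% and 5.84% of those with neither, and in 6.38% of the WT *Il2ra* cells. *Vpreb3*, a B lineage gene strong in precursors, was found in 97.0% and 100% of the *Il7r* cells against 86.0% and 76.6%, so it separated them less. Among Y-positive B cells the *Il2ra* ratio had an interval that crossed 1 (0.315, 0.00751 to 2.03).

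**Figure D4:**
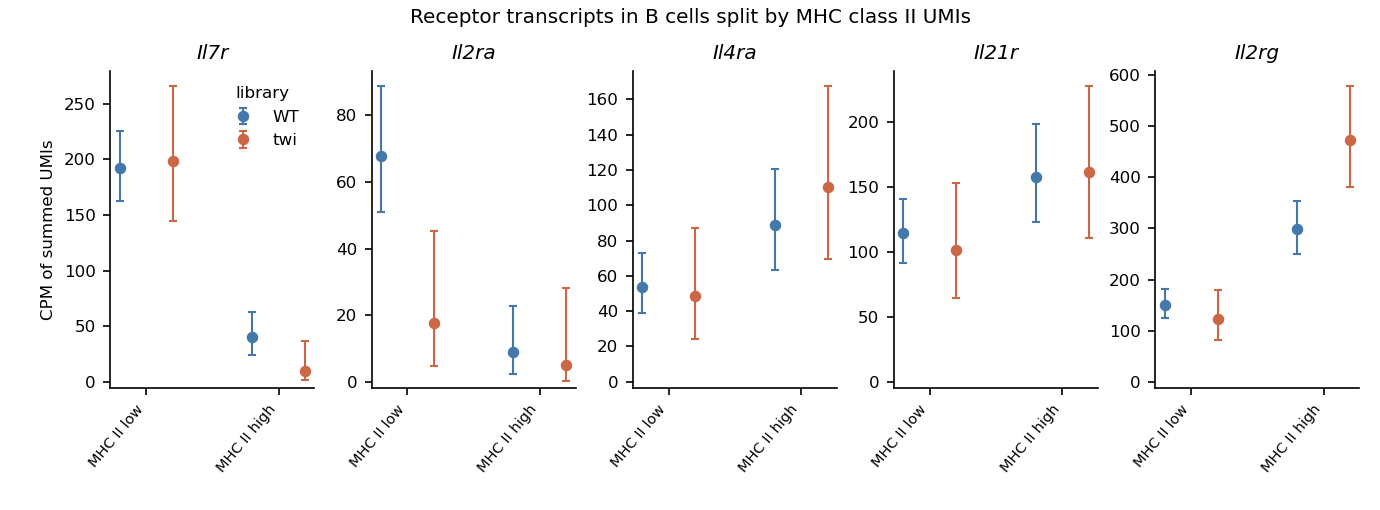
Points are CPM of summed UMIs and bars the 95% Poisson interval for 5 receptors in B cells with fewer than 5 (MHC II low) or at least 5 (MHC II high) MHC class II UMIs, in the WT (blue) and twi (orange) library. *Il7r* fell from 192 CPM in low to 39.8 CPM in high WT cells, and *Il2rg* stood higher in the high cells of both libraries.

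Several pairs of chains were read in the same cell at counts near those that the product of their separate shares gives (in brackets). Among effector-like CD8 cells, *Il2rb* and *Il2rg* met in 15 of 46 WT (11.15) and 137 of 362 twi cells (135.2). *Il7r* and *Il2rg* met in 20 WT (18.2) and 79 twi cells (86.7). *Il2rb* and *Il7r* met in 16 WT (12.8) and 66 twi cells (60.0). *Il18r1* and *Il18rap* met in 15 of 77 WT (17.04) and 10 of 76 twi NK cells (7.895). Other pairs lay further from the product. *Il18r1* and *Il18rap* met in 15 twi effector-like CD8 cells (6.90), whose median of 6722 UMIs was above the 4280 of the class. In WT B cells *Il4ra* and *Il21r* met in 26 cells (16.94), and *Il7r* and *Il2rg* in 17 (33.3). The parts of depth and class makeup in these counts were not tested, so no pairing is read from them. For the first pair, cells with both chains were deeper than their class, at medians of 5889 (WT) and 5033 (twi) UMIs against 4349 and 4280. Twi NK cells with both *Il18r1* and *Il18rap* were not deeper, at 2902 UMIs against 3072.

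Counted over the members with at least 20 UMIs in both libraries together, a ratio of at least 2 or at most 0.5 was reached as follows. In all CD8 T cells 9 members were counted and 1 was higher (*Il12rb2*, with the 0 WT UMIs set at 3, while the exact lower limit of 1.545 is short of 2-fold) and 2 lower (*Il7r* and *Il6ra*), where 10.4% of 7517 genes were higher and 2.59% lower. In effector-like CD8 cells none of 9 was higher and the same pair was lower, against 13.0% and 3.93% of 7043 genes. In naive-like CD8 cells 1 of 5 was higher (*Il4ra*) and none lower, against 4.42% and 2.37% of 2193 genes. In CD4 cells 1 of 6 was higher (*Il2rb*) and 1 lower (*Il6ra*), against 5.93% and 3.43% of 2480 genes. NK cells had 1 of 6 higher (*Il21r*) and 1 lower (*Il18r1*), against 4.60% and 3.30% of 3391 genes. B cells had none of 5 higher and 1 lower (*Il2ra*), against 1.98% and 5.26% of 7075 genes. Effector-like over naive-like, 1 of 5 members was higher (*Il2rb*) and 1 lower (*Il6ra*) in WT, against 8.55% and 3.50% of 2397 genes. In twi 2 of 9 were higher (*Il2rb* and *Il18rap*, the latter on 2 naive-like UMIs) and 2 lower (*Il7r* and *Il6ra*), against 15.2% and 5.50% of 7014 genes. The median log2 ratio of the members was 0.42 in all CD8 and -0.08 in effector-like CD8 cells, where the median of all genes counted was 0.12 and 0.10. In the twi effector-like over naive-like contrast the median of all genes was 0.105.

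**Figure D5:**
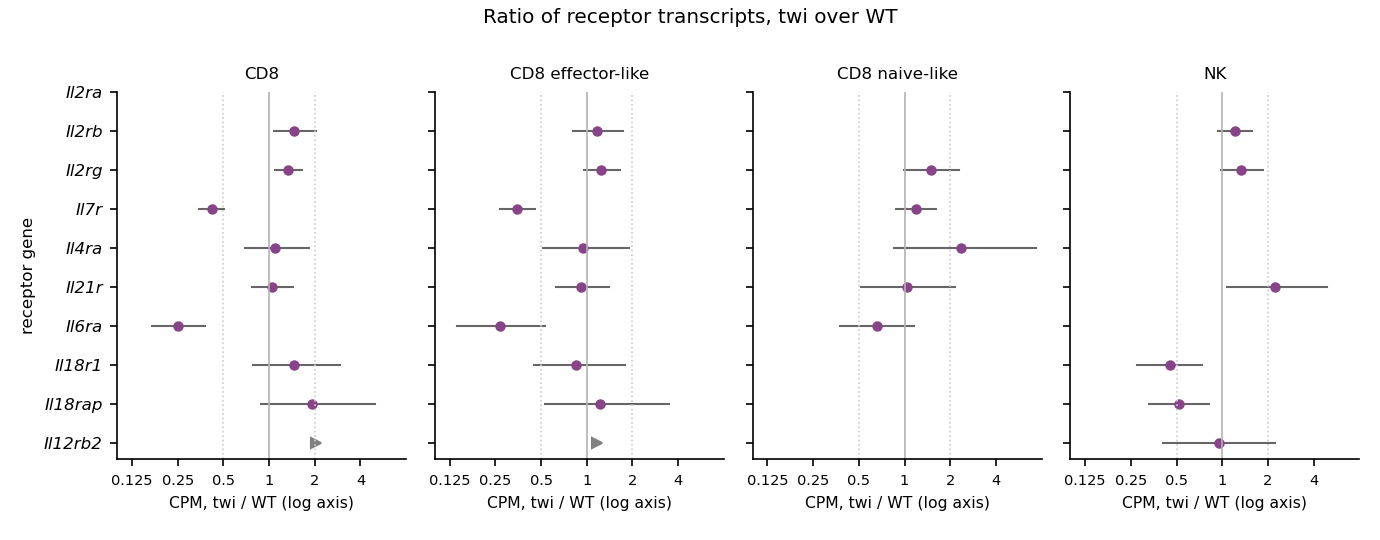
Ratio of CPM in twi over WT (log axis) for each receptor with at least 20 UMIs, in 4 cell classes, with 95% exact intervals. Dotted lines mark 2-fold and grey arrowheads the ratio against 3 UMIs where WT had 0 UMIs. *Il7r* and *Il6ra* lay left of 0.5 in CD8 and effector-like CD8 cells, and *Il18r1* in NK cells.

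The wider pathway was read from 51 genes: ligands, other receptor subunits, transducers, and feedback and survival genes. In CD8 T cells 31 of them had enough UMIs and 8 were at least 2-fold higher in twi, with none lower, where 10.4% of all genes were higher. The median log2 ratio was 0.39 among transducers, 0.45 among feedback and survival genes and 0.64 among the other receptor subunits, against 0.12 over all genes. Those past 2-fold included *Cish*, which is induced by STAT5 and restrains the same receptors, at 9.10 CPM in WT and 69.3 CPM in twi (ratio 7.61, 2.91 to 28.3), *Socs1* (2.48, 1.40 to 4.76) and *Jak3*, the kinase bound by the gamma chain (2.20, 1.07 to 5.275). *Socs2* had 0 UMIs in WT and 37 in twi. In effector-like cells alone 4 of 30 were higher and none lower, against 13.0% and 3.93% of all genes, so by count the list was near the background there. *Cish* was among the 4 and stood at 17.9 CPM in WT and 77.6 CPM in twi (ratio 4.35, 1.66 to 16.2). The median log2 ratio there was 0.20 among transducers, 0.625 among feedback and survival genes and 0.54 among the other receptor subunits. Over all genes it was 0.10. *Cish* was not found in twi naive-like cells, while effector-like cells held 139 UMIs.

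In NK cells 2 of 17 pathway genes were higher in twi, *Socs1* among them (2.13, 0.905 to 5.55), and none lower, against 4.60% and 3.30% of all genes. CD4 T cells had 3 of 11 higher, against 5.93% of all genes, *Socs1* (3.61, 1.24 to 14.4), the interferon gamma receptor chain *Ifngr1* (2.09, 1.41 to 3.16) and *Il27ra* (2.01, 0.704 to 7.02), and none lower. B cells had 1 of 27 higher, *Irak3* (2.45, 0.995 to 5.93), and 1 lower, *Irak1* (0.468, 0.142 to 1.21), against 1.98% and 5.26%. Naive-like CD8 cells had 1 of 10 higher, *Il27ra* (2.54, 1.02 to 7.15), and 1 lower, *Stat4* (0.3855, 0.135 to 0.978), against 4.42% and 2.37%. Ligands were rare: 4 of the 12 had any UMI in effector-like CD8 cells. Only *Il2* had enough UMIs for a ratio there, and within twi it held 34 UMIs in effector-like and 1 UMI in naive-like cells (3.70, 0.620 to 150.3). Effector-like over naive-like, the pathway list had 6 of 31 genes higher and 1 lower in twi, against 15.2% and 5.50% of all genes, and 1 of 12 higher and 1 lower in WT, against 8.55% and 3.50%.

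Across 16 points (8 classes with at least 10 cells in each library), the genes whose log2 level ran closest to each receptor were found among 7159 genes with at least 100 UMIs. These correlations describe points that share libraries and class makeup. *Il2rb* ran closest to *AW112010* (Pearson r = 0.955), *Il12rb1*, the partner chain of *Il12rb2* (0.95), and *Ifng* (0.939). *Il18r1* ran closest to *Dok2* and to *Il2rb* itself (both 0.923). *Il7r* ran closest to *Dgka* (0.932), *Il2rg* to *P2ry10* (0.945), *Il18rap* to *Dapk2* (0.888) and *Il21r* to the mitochondrial transcript *mt-Co1* (0.957). *Il6ra* (0.822), *Il2ra* (0.850) and *Il4ra* (0.806) had no closer neighbour than *G430095P16Rik*, *Gm20696* and *Fadd*, and *Il12rb2* had too few UMIs to be compared.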

How the data were processed

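Counts were deposited by the authors as UMIs per gene and barcode, made per the labels from single cell 3′ v2 libraries with Cell Ranger 2.1.1 on mm10 (the names are from the submitters' processing notes), and were used as deposited. Barcodes with at most 15% mitochondrial UMIs were gated by marker UMIs: T cells by at least 2 *Cd3* UMIs, B cells and mononuclear phagocytes by at least 3 marker UMIs, neutrophils by at least 1% *S100a8* and *S100a9*, and NK cells by at least 2 NK receptor UMIs with under 2 *Cd3* UMIs. Barcodes past several lineage gates were left out as mixed (36 WT, 31 twi), and no other doublet caller was run. UMIs were summed per class and scaled to CPM. Intervals were exact (Poisson for CPM, conditional binomial for ratios, Clopper-Pearson for shares), checked on simulated data, at 95%. With 1 library per genotype no p-value was computed. A gene was called at 2-fold with at least 20 UMIs over both groups, and a count of 0 stood at 3 UMIs. The likeness used log2(CPM + 10). Members, lists and gates were chosen with earlier results of these data known. All members were named, and of the pathway list at most 5 genes past 2-fold per comparison. The splits by *C1q*, MHC class II, NK receptor, *Cd3*, cycling, interferon-stimulated and naive UMIs were chosen after seeing the data. Thinning left out cells under 1000 UMIs (106 WT, 20 twi). Python 3.11.15, numpy 2.4.6, scipy 1.17.1 and pandas 2.3.3 were used. Some gate and pathway genes, and 1 small subset of T cells without *Cd4* or *Cd8* UMIs, are not reported here. Number of pooled animals was not used here.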

Additional observations from a re-analysis of the deposited data

How the results depend on the processing

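No paired analysis was possible because each genotype is 1 pooled library, and no replicate could be left out. The number of members past 2-fold was 3 in all CD8 T cells, 2 in effector-like CD8 cells (twi over WT), and 4 in twi and 2 in WT for effector-like over naive-like. Restricted to cells with Y-linked transcripts and no *Xist*, these counts were 1, 1, 1 and 1, where fewer cells left 6, 4, 4 and 5 members countable. Thinned to 1000 UMIs, the last 3 counts were 1, 2 and 0, and with at least 50 UMIs the effector-like count was 1 and the WT effector-like over naive-like count 0. The latter was 1 when scaled without mitochondrial and ribosomal UMIs, and 1 among cells without naive UMIs, an alternative added after seeing the data. The effector-like count was 1 with *Ccl5* and *Nkg7* out of the gate, where WT kept 7 cells. No ratio past 2-fold changed direction. Of 534 alternative member ratios, 501 stayed within the interval of the reported value and 33 left it. The *Il7r* effector-like ratio ranged from 0.180 to 0.956, that over all CD8 T cells from 0.347 to 0.453, and the NK ratio of *Il18r1* from 0.426 to 0.587. Depth limits the sparse receptors most: in CD8 T cells *Il12rb2* rests on 28 twi UMIs and *Il2ra* on 1 WT and 5 twi UMIs.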
